A study of Mus musculus with 4 samples.

Results

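The genes described here are 40 genes of the unfolded protein response and of the amino acid response run by the transcription factor ATF4, taken by symbol from a count table of 51826 mouse gene identifiers. All 40 were found and all 40 had enough counts to be tested, the lowest count of any of them in any library being 256. RNA was sequenced from C2C12 cells, a mouse myoblast line that the labels call muscle stem cells, after 6 h with recombinant GDF10 (2 libraries, GDF10 1 and GDF10 2) or with vehicle for the same time (2 libraries, vehicle 1 and vehicle 2). Both groups were in growth medium. The libraries of a group are described as biological replicates of the 1 cell line, and no GDF10 dose is stated. GDF10 is a secreted growth factor related to TGF-beta and the bone morphogenetic proteins, and the comparison asks which of these transcripts differ after it is added.

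The unfolded protein response is set off when misfolded proteins build up in the endoplasmic reticulum (ER), where secreted and membrane proteins fold. The sensors IRE1 (Ern1), PERK (Eif2ak3) and ATF6 each lead to a transcription factor: IRE1 splices the Xbp1 transcript, PERK phosphorylates eIF2 so that ATF4 is translated, and ATF6 is itself cut to release one. XBP1 and ATF6 act mainly on chaperones and on ER-associated degradation, while ATF4, which other eIF2 kinases also switch on when amino acids run short, acts on amino acid synthesis and transport and on its own feedback regulators. Myoblasts engage these pathways as they differentiate. Counts per gene show neither Xbp1 splicing nor the translation of Atf4.

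The promoters of these genes carry known elements, and those with a match are shown for the elements through which these genes are known to be regulated. RefSeq promoter windows of 300 bases, 250 before and 50 after the annotated start (build GRCm38.p6), were held for 36 of the 40 genes. Atf6, Slc7a5, Hyou1 and Manf had no window and were not searched. The ER stress element ERSE, searched on both strands as CCAAT and CCACG with 9 bases of any kind between them, was found in 8 of these 36 genes, against 0.137% of all 27025 genes with a window. The 8 genes with it were all among the 14 chaperone, disulfide isomerase and ER-associated degradation genes with a window. Stretches on the sense strand, 5′ to 3′, are given with the fixed letters of each match in capitals. A match on the other strand reads CGTGG before ATTGG. Only exact matches were sought, so a stretch that departs from the pattern by any fixed letter is not marked.
Hspa5 (chr2:34771840-34772089, plus strand): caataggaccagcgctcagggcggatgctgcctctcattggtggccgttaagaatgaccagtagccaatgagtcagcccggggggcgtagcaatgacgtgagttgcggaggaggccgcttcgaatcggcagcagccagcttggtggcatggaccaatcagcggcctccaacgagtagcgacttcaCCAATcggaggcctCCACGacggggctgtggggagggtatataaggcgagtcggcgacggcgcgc
Hsp90b1 (chr10:86705527-86705662, minus strand): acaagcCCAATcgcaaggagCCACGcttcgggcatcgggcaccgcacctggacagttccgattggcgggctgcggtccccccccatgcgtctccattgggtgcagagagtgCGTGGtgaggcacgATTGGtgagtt
Calr (chr8:84847069-84847099, minus strand): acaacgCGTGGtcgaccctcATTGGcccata
Canx (chr11:50325794-50325824, minus strand): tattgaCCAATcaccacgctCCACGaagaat
Dnajc3 (chr14:118937821-118937851, plus strand): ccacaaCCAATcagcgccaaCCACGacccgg
Creld2 (chr15:88819514-88819544, plus strand): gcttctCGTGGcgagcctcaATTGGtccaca
Pdia6 (chr12:17266485-17266515, plus strand): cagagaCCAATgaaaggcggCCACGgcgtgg
Syvn1 (chr19:6046526-6046556, plus strand): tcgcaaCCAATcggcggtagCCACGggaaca

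The C/EBP-ATF response element (CARE), the site ATF4 is known to bind with a C/EBP partner, was searched as TGATGNAA on both strands and was found in 7 of the 36 genes, or 19.4%, against 4.51% of all genes with a window. Of the 7, 5 belonged to the 14 amino acid response genes with a window, and the others were Nupr1 and Herpud1. The match in Trib3 lay after the start, 15 to 22 bases into the transcript. Herpud1, a gene of ER-associated degradation, was the 1 gene with elements of both kinds, a CARE and the shorter element ERSE-II (ATTGG and CCACG with 1 base of any kind between them, on either strand, in 0.0444% of all genes).
Herpud1 (chr8:94386311-94386393, plus strand): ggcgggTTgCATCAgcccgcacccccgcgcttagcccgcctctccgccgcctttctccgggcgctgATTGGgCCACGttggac
Slc7a11 (chr3:50443647-50443685, minus strand): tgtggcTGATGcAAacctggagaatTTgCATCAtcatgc
Asns (chr6:7693219-7693238, minus strand): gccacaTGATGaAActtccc
Pycr1 (chr11:120643838-120643857, minus strand): tgtgtaTGATGcAAtgcaca
Chac1 (chr2:119351043-119351062, plus strand): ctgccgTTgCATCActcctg
Nupr1 (chr7:126625567-126625586, minus strand): gccagaTTgCATCAgacagg
The element UPRE (TGACGTGG) was found in 0 of the 36 genes and in 0.714% of all genes, and the cyclic AMP element CRE (TGACGTCA) in Ppp1r15a alone among the 36 and in 2.03% of all genes. None of the matches listed overlapped another. A match shows only that these letters are present, and many of these genes became known as targets through such elements.

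**Figure D1:**
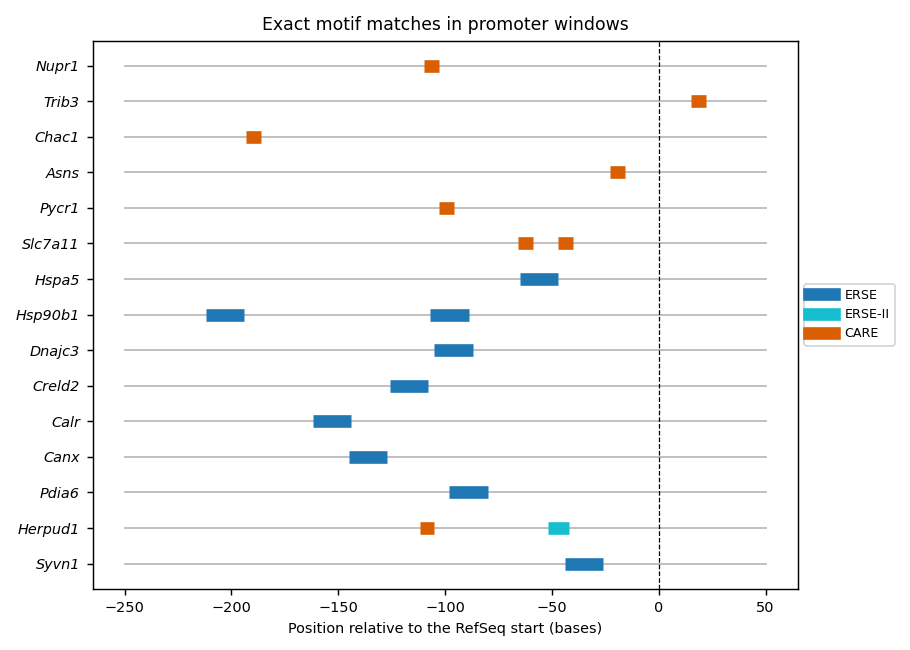
Positions of exact matches of ERSE, ERSE-II and CARE (coloured bars) along the RefSeq promoter window of each gene that holds one; the horizontal axis gives bases from the annotated start (dashed line), and each grey line is a window of 300 bases. ERSE matches lie in the 8 ER branch genes and CARE matches mostly in amino acid response genes, with Herpud1 holding a CARE and an ERSE-II.

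Total counts were 29944193 and 35057429 in the GDF10 libraries and 35597310 and 29641165 in the vehicle libraries. The cells had the markers of myoblasts: of 7 such genes, 6 were detected, with sums of 2106 and 2102 CPM (edgeR's CPM, counts relative to the TMM-scaled total of the library) in the GDF10 libraries and 2051 and 2035 CPM in the vehicle libraries, and Pax7 was at 0 in all 4. Markers of immune and blood cells summed to 7.20 to 8.81 CPM, with Adgre1 and Hbb-bs at 0, and those of endothelial and epithelial cells to 0.400 to 0.756 CPM, with Epcam at 0. Fibroblast markers, of which C2C12 cells express several, summed to 4363 and 4743 CPM in the GDF10 libraries and 4302 and 4506 CPM in the vehicle libraries. Mature muscle markers summed to 85.4 and 83.7 CPM in the GDF10 libraries and 73.8 and 78.6 CPM in the vehicle libraries, with none of the 8 at 0 throughout. Actn3 made up most of this sum, with a mean of 75.4 CPM in GDF10 libraries and 66.7 CPM in vehicle libraries, and 5 of the 8 (Myh1, Myh2, Myh4, Myh7 and Pvalb) had the lower mean with GDF10; their part in the results was not tested. The extraction protocol speaks of longissimus dorsi, a back muscle, although cell line and source are given as C2C12.

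The ER branch supplied the 2 most abundant transcripts per exon length. Calr, the calcium-binding lectin chaperone calreticulin, stood first in each group, at 330 and 322 CPM per kilobase in the GDF10 libraries and 313 and 298 in the vehicle libraries. Hsp90b1, the ER form of HSP90, followed at 256 and 258 CPM per kilobase with GDF10 and 286 and 286 with vehicle. Atf4 came next in vehicle, at 202 and 203 CPM per kilobase in the GDF10 libraries and 193 and 198 in the vehicle libraries, so the factor's own transcript was among the most abundant of the set in cells with no added ligand. Of the sensors, Eif2ak3 was at 4.27 and 4.57 CPM per kilobase with GDF10 and 4.39 and 4.71 with vehicle, Ern1 at 7.42 and 9.05 with GDF10 and 8.15 and 9.44 with vehicle. Atf6 was higher, at 16.0 and 18.1 CPM per kilobase with GDF10 and 17.9 and 19.3 with vehicle. The lowest per exon length were Pycr1, of proline synthesis, and Slc7a11, the cystine carrier, with Slc7a11 at 2.22 and 2.33 CPM per kilobase with GDF10 and 2.02 and 2.29 with vehicle. Exon length takes in all annotated exons of a gene, 13922 bases for Slc7a11 beside a median of 3526.5 for the 40 genes. In the order of vehicle levels, 31 of 39 neighbouring pairs had overlapping ranges over the 4 libraries; the 8 that did not include Calr above Hsp90b1 and Hsp90b1 above Atf4.

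**Figure D2:**
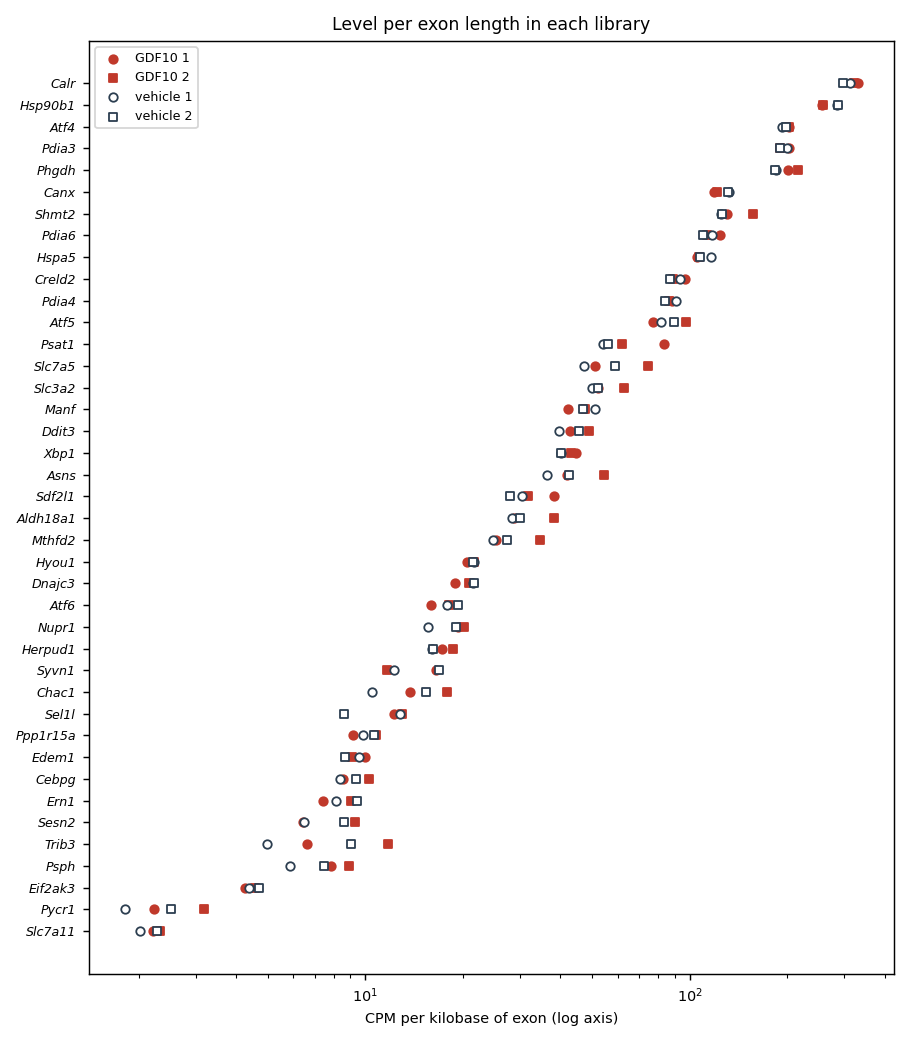
Level of each of the 40 genes in each library, in CPM per kilobase of exon on a log axis, ordered by the vehicle mean; filled red symbols are GDF10 libraries, open dark symbols vehicle libraries, circles replicate 1 and squares replicate 2. Levels span from about 2 CPM per kilobase for Slc7a11 to 330 for Calr, and the groups lie close together beside that span.

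No gene of the set passed the test of GDF10 against vehicle. By edgeR's quasi-likelihood test over 15467 genes, with Benjamini-Hochberg adjustment over all of them and a threshold of 0.05, 0 of the 40 were called, where 25 of all genes tested, or 0.162%, were (0.084% higher and 0.0776% lower with GDF10). DESeq2 and limma-voom also called 0 of the 40. An unadjusted p under 0.05 was reached by 4 of the 40 in edgeR, against 5.94% of all genes. Phgdh, Psat1 and Psph were the 3 on the side of GDF10, where 2.44% of all genes stood, and Hsp90b1 was the 1 on the side of vehicle, beside 3.49% of all genes; each had an adjusted p of 0.825 in edgeR. This count of 4 became 10 without GDF10 1, beside 5.62% of all genes in that fit, and 7 without GDF10 2, beside 15.1%. It became 1 without vehicle 1, beside 4.99% of all genes, and 3 without vehicle 2, beside 3.46%. The 25 calls among all genes became 112, 224, 27 and 44 in these fits. Both GDF10 libraries lay above both vehicle libraries in 11 of the 40 and below them in 4, together 37.5%, against 38.2% of all genes tested (18.8% above and 19.4% below). Fold changes were positive in 29 of the 40 and negative in 11, against 50.8% and 49.2% of all genes tested, and their median was 0.09 on the log2 scale, beside 0.00 for all genes. In bulk RNA, fewer cells with a transcript and less transcript per cell cannot be told apart.

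**Figure D3:**
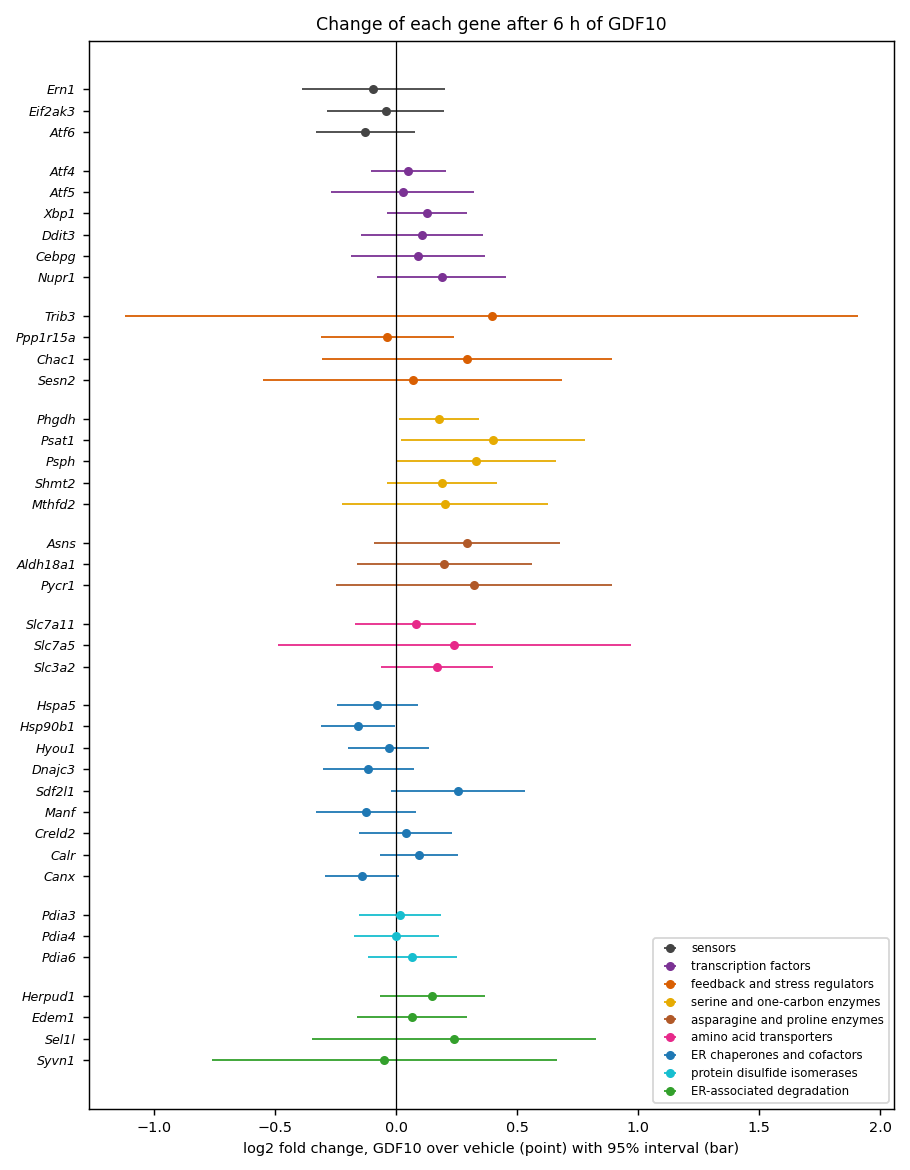
Log2 fold change of GDF10 over vehicle for each of the 40 genes (points) with its 95% interval from edgeR's quasi-likelihood fit (bars), grouped and coloured by role. The 5 serine and one-carbon enzymes all lie to the right of 0, the 3 sensors to the left, and the intervals of Phgdh, Psat1, Psph and Hsp90b1 end just short of 0.

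The sensors did not differ beyond the spread between libraries. Ern1, which encodes the kinase and RNase IRE1, had 60.6 and 74.0 CPM in the GDF10 libraries and 66.6 and 77.2 CPM in the vehicle libraries. Eif2ak3, the PERK gene, had 25.7 and 27.5 CPM with GDF10 and 26.5 and 28.4 CPM with vehicle. Atf6 had 147 and 167 CPM with GDF10 and 166 and 178 CPM with vehicle. The groups overlapped for all 3. Their log2 fold changes were −0.09 (95% interval −0.39 to 0.20), −0.04 (−0.28 to 0.20) and −0.13 (−0.33 to 0.08) in that order.

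Among the transcription factors, Atf4 stood at 477 and 478 CPM in the GDF10 libraries and 454 and 468 CPM in the vehicle libraries, a log2 fold change of 0.05 with a 95% interval of −0.10 to 0.21. Both GDF10 values lay above both vehicle values, by less than the gap between the vehicle libraries. Xbp1, the transcript that IRE1 splices, had 145 and 140 CPM with GDF10 and 130 and 131 CPM with vehicle, again with no overlap (log2 fold change 0.13, −0.04 to 0.29). Ddit3 encodes CHOP, a factor linked to cell death under lasting stress, and had 73.5 and 84.0 CPM with GDF10 and 67.9 and 78.4 CPM with vehicle (log2 fold change 0.11, −0.15 to 0.36). The Ddit3 groups overlapped, with GDF10 2 highest and vehicle 1 lowest. Nupr1, a small stress-induced chromatin protein gene, had 48.7 and 50.6 CPM with GDF10 and 39.3 and 47.9 CPM with vehicle (log2 fold change 0.19, unadjusted p = 0.141 in edgeR). Atf5 and Cebpg, bZIP factors of the same network, had log2 fold changes of 0.03 and 0.09 with overlapping groups. All 6 factors had a positive fold change and none was called; 4 of 6 were positive with the GC content trend removed, with the exon length trend removed and without GDF10 2, and 5 without vehicle 1, and Atf4 turned negative under both trends (−0.0017 and −0.0010).

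The amino acid response genes, 15 in all, had positive fold changes in 14, beside 50.8% of all genes tested. Their median was 0.20 on the log2 scale, beside 0.05 for the 9 sensors and factors and 0.01 for the 16 ER genes. Their summed level was 2112 and 2412 CPM in the GDF10 libraries and 1871 and 2003 CPM in the vehicle libraries. Both GDF10 sums lay above both vehicle sums, but without Psat1, a sum added after the values were seen, they were 1757 and 2148 CPM with GDF10 and 1641 and 1764 CPM with vehicle and overlapped. Gene by gene, 5 of the 15 had groups that did not overlap, or 33.3%, beside 38.2% of all genes. The ER genes summed to 5160 and 5074 CPM in the GDF10 libraries and 5325 and 5125 CPM in the vehicle libraries. The median of the amino acid genes depended on the libraries used: without GDF10 2 it was 0.04, with 9 of 15 positive, without GDF10 1 it was 0.39, with 15 positive, without vehicle 1 it was 0.13, with 12 positive, and without vehicle 2 it was 0.28, with 15 positive.

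The serine and one-carbon enzymes, which turn a glycolytic intermediate into serine and pass its carbon to folate, held 3 of the 4 genes with an unadjusted p under 0.05 in edgeR. Phgdh, the first enzyme of serine synthesis (ENSMUSG00000053398; mm10 chromosome 3, 98313170 to 98339990), had 499 and 535 CPM in the GDF10 libraries and 459 and 457 CPM in the vehicle libraries. Psat1, the aminotransferase that acts next (ENSMUSG00000024640; chromosome 19, 15904678 to 15947337), had 355 and 264 CPM with GDF10 and 230 and 238 CPM with vehicle. Psph, the phosphatase of the last step (ENSMUSG00000029446; chromosome 5, 129765558 to 129787449), had 34.0 and 38.6 CPM with GDF10 and 25.4 and 32.4 CPM with vehicle. In all 3 both GDF10 libraries lay above both vehicle libraries, as in 18.8% of all genes tested. The 3 are singled out by their p, so this separation is not further evidence. For Psat1 the gap between the GDF10 libraries, with GDF10 1 higher, was wider than the gap between the groups.

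The log2 fold changes were 0.18 ± 0.07 for Phgdh, 0.40 ± 0.15 for Psat1 and 0.33 ± 0.14 for Psph (± standard error, n = 2 per group, adjusted p = 0.825 each in edgeR). The fold change of Psph ran from 0.16 to 0.52 when a library was left out. The unadjusted p of Psph was 0.0498 in edgeR, 0.0602 in DESeq2 and 0.0540 in limma-voom. Psat1 passed in edgeR's fit without GDF10 2, at an adjusted p of 0.00478 and a log2 fold change of 0.60, where a single GDF10 library is taken to vary like the vehicle libraries, and its fold change without GDF10 1 was 0.17. With the GC content trend of each library removed, the log2 fold changes were 0.12 for Phgdh, 0.39 for Psat1 and 0.33 for Psph. Shmt2 makes glycine from serine in mitochondria and had 405 and 487 CPM with GDF10 and 389.7 and 391.9 CPM with vehicle, also without overlap. Mthfd2, its partner in mitochondrial folate metabolism, had 88.1 and 121 CPM with GDF10 and 86.4 and 95.3 CPM with vehicle, with overlap between the groups. Their log2 fold changes were 0.19 (95% interval −0.04 to 0.42) and 0.20 (−0.22 to 0.63).

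For asparagine and proline synthesis, GDF10 2 was the highest library for all 3 genes and vehicle 1 the lowest. Asns, asparagine synthetase and a textbook ATF4 target, had 115 and 149 CPM in the GDF10 libraries and 99.2 and 116 CPM in the vehicle libraries (log2 fold change 0.29, 95% interval −0.09 to 0.68, and 0.09 to 0.47 when a library was left out). Aldh18a1, which opens the proline pathway, had 117 and 156 CPM with GDF10 and 115 and 122 CPM with vehicle. Pycr1, which closes it, stood at a log2 fold change of 0.32 (−0.25 to 0.89). The groups overlapped in each of them.

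Among the transporters, Slc7a5, the light chain of the large neutral amino acid carrier LAT1, had 189 and 276 CPM with GDF10 and 175 and 218 CPM with vehicle. Its heavy chain Slc3a2, shared with other carriers, had 185 and 222 CPM with GDF10 and 177 and 184 CPM with vehicle. Slc7a11, which pairs with Slc3a2 to import cystine and carries both CARE matches shown above, had 30.9 and 32.5 CPM with GDF10 and 28.1 and 31.9 CPM with vehicle. The groups overlapped for Slc7a5 and Slc7a11, and for Slc3a2 both GDF10 values were higher, with GDF10 1 and vehicle 2 almost level. Log2 fold changes were 0.24 for Slc7a5, 0.17 for Slc3a2 and 0.08 for Slc7a11.

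The feedback and stress regulators varied most between libraries of the same group. Trib3, a pseudokinase that restrains ATF4 and CHOP, had 14.1 and 25.0 CPM in the GDF10 libraries and 10.6 and 19.3 CPM in the vehicle libraries. Chac1, which breaks down glutathione, had 22.5 and 29.2 CPM with GDF10 and 17.2 and 25.2 CPM with vehicle. In each the replicate 2 library of a group was well above its replicate 1 library, so the groups overlapped. The log2 fold change of Trib3 was 0.39 with an interval of −1.12 to 1.91, and that of Chac1 was 0.29 with an interval of −0.31 to 0.89, and 0.04 to 0.59 when a library was left out. Sesn2, an inhibitor of mTORC1 signalling, and Ppp1r15a, the GADD34 gene, which restores translation by dephosphorylating eIF2, had log2 fold changes of 0.07 and −0.04.

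**Figure D4:**
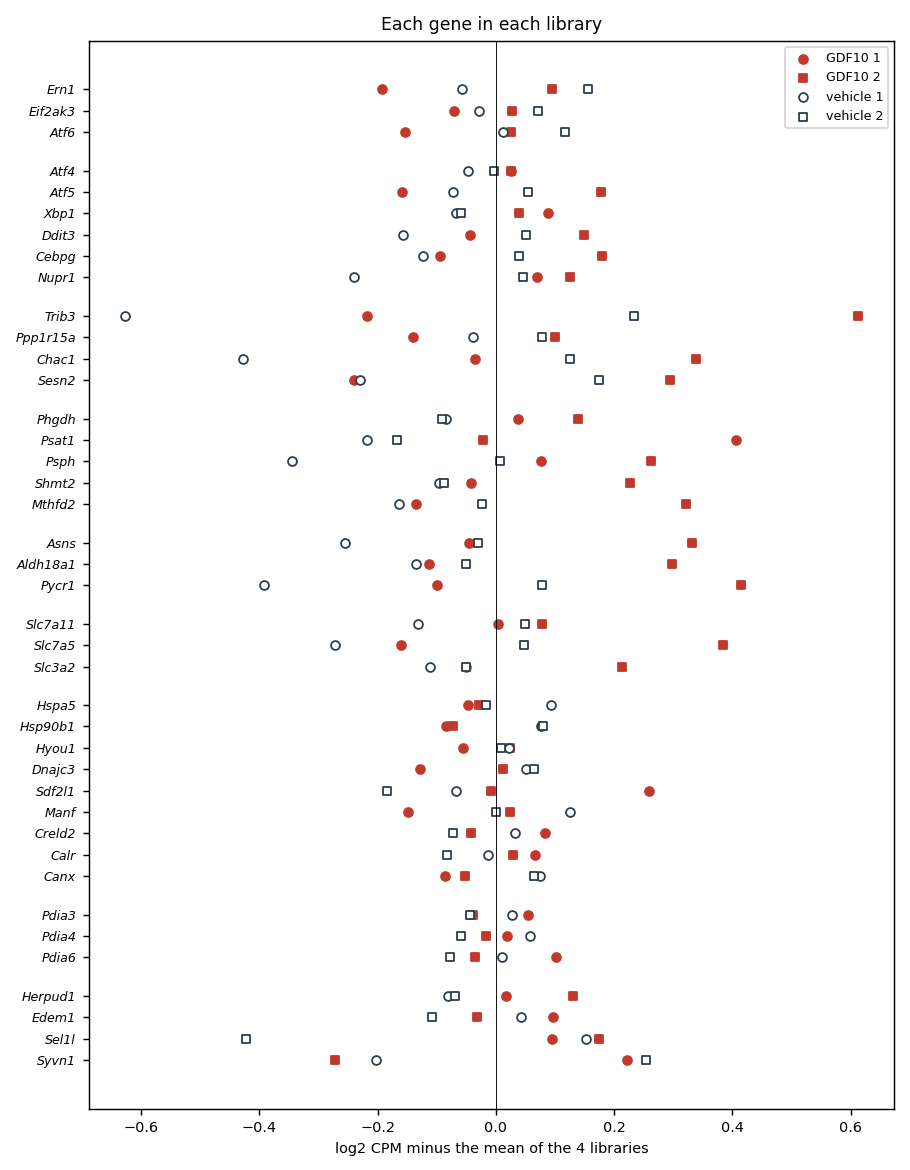
Log2 CPM of each gene in each library minus the mean of its 4 libraries, by role from the sensors at the top to ER-associated degradation at the bottom; filled red symbols are GDF10 libraries, open dark symbols vehicle libraries, circles replicate 1 and squares replicate 2. The squares lie to the right of the circles of their group for most amino acid response genes, as for Trib3 (14.1 and 25.0 CPM with GDF10, 10.6 and 19.3 CPM with vehicle), while the ER chaperones and isomerases stay close to 0.

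The ER chaperones had fold changes in both directions. Hsp90b1 (ENSMUSG00000020048; chromosome 10, 86690209 to 86705509) had 1030.2 and 1038 CPM in the GDF10 libraries and 1151 and 1154 CPM in the vehicle libraries, with no overlap and little spread within either group (log2 fold change −0.16 ± 0.06, standard error, n = 2 per group, adjusted p = 0.825 in edgeR). With the GC content trend removed its log2 fold change was −0.08, and with the exon length trend removed −0.17. Hspa5, the BiP gene, the chief ER HSP70 and the usual marker of the response, had 447 and 453 CPM with GDF10 and 493 and 456 CPM with vehicle (log2 fold change −0.08, 95% interval −0.25 to 0.09). Canx, the membrane-bound lectin chaperone calnexin, had 557 and 570 CPM with GDF10 and 623 and 618 CPM with vehicle. Hspa5 and Canx both lay lower in the GDF10 libraries without overlap, as did the co-chaperone gene Dnajc3, at 97.4 and 107 CPM with GDF10 and 110 and 111 CPM with vehicle. Of the 16 ER genes, 4 lay lower without overlap, or 25%, and 3 higher, or 18.8%, beside 19.4% and 18.8% of all genes. These 4 lower genes hold an exact ERSE, as do Calr, Creld2, Pdia6 and Syvn1, with log2 fold changes of 0.10, 0.04, 0.07 and −0.05. Hyou1 and Manf could not be searched for it. With the GC content trend removed, Hspa5, Canx and Dnajc3 had log2 fold changes of −0.04, −0.06 and −0.05, against −0.08, −0.14 and −0.11 before.

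Calr lay the other way, at 951 and 927 CPM with GDF10 and 900.1 and 858 CPM with vehicle. Sdf2l1, a cofactor of BiP, had 42.3 and 35.1 CPM with GDF10 and 33.7 and 31.1 CPM with vehicle (log2 fold change 0.26, 95% interval −0.02 to 0.53). The groups of both did not overlap, and neither gene passed. Hyou1, an exchange factor of the HSP70 family, Manf, a secreted ER stress protein, and Creld2, another ER resident, overlapped between groups had log2 fold changes of −0.03, −0.12 and 0.04.

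The disulfide isomerases Pdia3, Pdia4 and Pdia6, which form and reshuffle disulfide bonds, overlapped between groups. Pdia4 had 213 and 207 CPM with GDF10 and 218 and 201 CPM with vehicle, a log2 fold change of 0.00 with a 95% interval of −0.17 to 0.18. Pdia3 had 637 and 598 CPM with GDF10 and 626 and 596 CPM with vehicle, and Pdia6 had 467 and 424 CPM with GDF10 and 438 and 412 CPM with vehicle. Their intervals, −0.15 to 0.18 and −0.12 to 0.25, leave out a 1.5-fold difference in either direction.

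Of the ER-associated degradation genes, Herpud1, which helps gather the membrane complex, had 40.2 and 43.5 CPM with GDF10 and 37.6 and 37.9 CPM with vehicle, with no overlap (log2 fold change 0.15, 95% interval −0.07 to 0.37). Sel1l, the adaptor of the ubiquitin ligase encoded by Syvn1, had 105 and 111 CPM with GDF10 and 109 and 73.3 CPM with vehicle, so that vehicle 2 alone stood apart. Its log2 fold change was 0.24, and −0.02 without vehicle 2. Syvn1 itself had 80.1 and 56.9 CPM with GDF10 and 59.7 and 82.0 CPM with vehicle, wider within each group than between them. Edem1, a lectin that hands glycoproteins to this route, had a log2 fold change of 0.06.

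Differences between libraries of 1 group were unlike in the branches, as a description with no test. In 13 of the 15 amino acid response genes the replicate 2 library was above the replicate 1 library in both groups, and in 8 of the 9 sensors and factors, against 27.9% of all genes tested. In the ER genes this held for 3 of 16, and the replicate 1 library was above in both groups for 7 of 16, against 29% of all genes tested. The median log2 ratio of GDF10 2 over GDF10 1 was 0.37 for the amino acid genes and −0.01 for the ER genes, and that of vehicle 2 over vehicle 1 was 0.18 and −0.08. For Trib3 these ratios were 0.83 and 0.86, larger than its log2 fold change of 0.39. Psat1 went against the other amino acid genes in the GDF10 libraries, with a ratio of −0.43. The labels do not say what the libraries of one replicate number share.

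**Figure D5:**
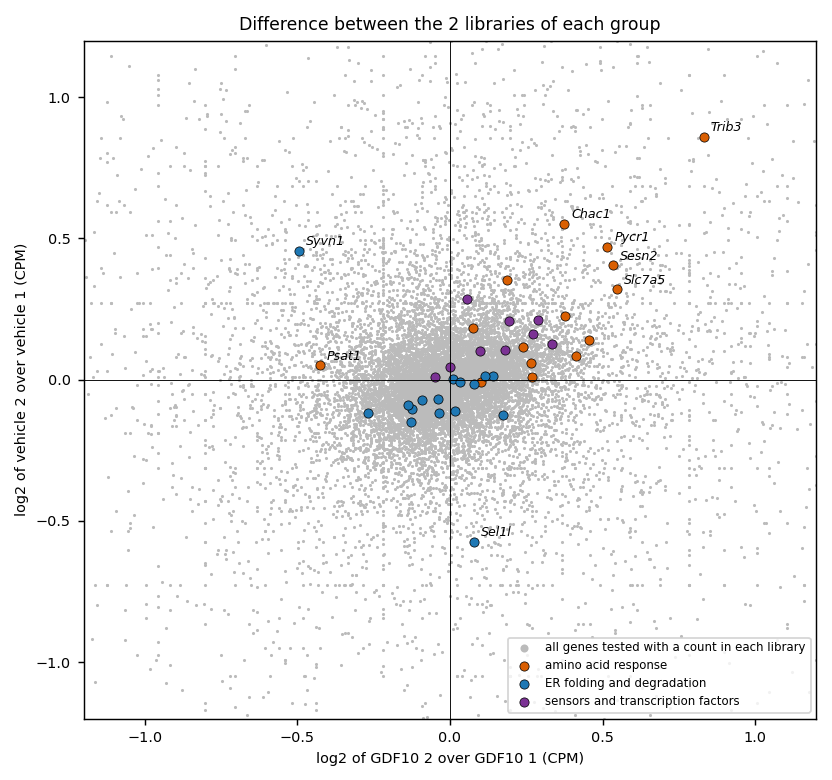
Log2 ratio of the replicate 2 over the replicate 1 library in the GDF10 group (horizontal) and in the vehicle group (vertical), for all genes tested with a count in each library (grey) and for the 40 genes by branch (coloured); genes beyond the axes are not shown. The amino acid response genes lie mostly in the upper right, with Trib3 farthest at 0.83 and 0.86, and most ER genes lie near the centre, apart from Syvn1 and Sel1l.

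Over the whole table GC content moved with the groups, while exon length set GDF10 1 apart from the other 3 libraries. Across 15431 genes, which are not independent replicates, Spearman's rho of the log2 fold change was 0.26 with GC content of the longest transcript and −0.26 with exon length. GC content correlated with the deviation from the mean of the 4 libraries at 0.15 and 0.17 in the GDF10 libraries and −0.15 and −0.20 in the vehicle libraries. Exon length did so at −0.33 in GDF10 1, 0.08 in GDF10 2, 0.12 in vehicle 1 and 0.20 in vehicle 2. The median GC content was 53.8% for the amino acid genes, 48.3% for the ER genes and 49.7% for all genes tested, and the median exon lengths were 3487, 3888.5 and 3839 bases. With the GC trend removed the amino acid genes had a median log2 fold change of 0.18 with 13 of 15 positive, and with the length trend removed 0.20 with 14 positive. Those with an unadjusted p under 0.05 numbered 1 and 0 in these fits, beside 4.54% and 5.99% of all genes, against 3 before, beside 5.94%. These fits also used limma in place of edgeR, and that limma test was not run without removing a trend. The change of test and the removal of a trend therefore cannot be told apart in these counts. Phgdh stood at a log2 fold change of 0.12 with the GC trend removed and 0.13 with the length trend removed. For the 9 sensors and factors Atf4 was the median in either case, just below 0, with 4 positive against 6 before. The part of GC content and length in these fold changes was not tested beyond this.

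Other genes of the same pathways were read from the same fit. Of 129 tested in 5 further lists 0 were called, beside the 0.162% of all genes, and 2 reached an unadjusted p under 0.05, both on the side of GDF10, a smaller share than the 5.94% of all genes (2.44% on that side). Jdp2, a bZIP repressor, had 118 and 114 CPM in the GDF10 libraries and 98.3 and 101 CPM in the vehicle libraries (log2 fold change 0.22, adjusted p = 0.815 in edgeR). Creb3l1, an ER-anchored factor of the ATF6 type, had 279 and 286 CPM with GDF10 and 244 and 248 CPM with vehicle (log2 fold change 0.20, adjusted p = 0.815 in edgeR). The groups of both, which were picked by their p, did not overlap, as in 40 of the 129 genes (31.0%) and 38.2% of all genes.

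By list, median log2 fold changes were 0.06 for 30 further ATF4 and amino acid response genes, 0.08 for 13 tRNA charging and export genes, 0.03 for 25 ER folding and oxidation genes, −0.000814 for 37 ERAD, translocon and XBP1 target genes and 0.02 for 24 genes of eIF2 and sensor processing. Positive fold changes numbered 24 of 30, 11 of 13, 19 of 25, 18 of 37 and 16 of 24 in that order. Over all 129 genes they numbered 88, or 68.2%, beside 50.8% of all genes tested. The list of 13 tRNA genes comprises 12 aminoacyl-tRNA synthetases and the exportin Xpot, and all 13 had the replicate 2 library above the replicate 1 library in both groups. Sars, the seryl-tRNA synthetase and the gene of lowest p among the 13, had 318 and 372 CPM with GDF10 and 287 and 316 CPM with vehicle (log2 fold change 0.19). It was the 1 gene of the 13 whose groups did not overlap, or 7.69%, beside 38.2% of all genes. Fold changes were negative in 2 of the 13, the lowest being −0.09 for Eprs. Over the 13 genes the median log2 ratio of replicate 2 over replicate 1 was 0.30 in the GDF10 group and 0.15 in the vehicle group. Of the 30 further ATF4 and amino acid genes, 14 had the replicate 2 library above in both groups. Of the ERAD, translocon and XBP1 target list, 13 of 37 genes had groups that did not overlap, or 35.1%, beside 38.2% of all genes. The 3 of lowest p were Ssr4, Dnajb9 and Sec61b. Ssr4, of the translocon-associated complex, and Sec61b, of the translocon, lay higher in both GDF10 libraries (log2 fold changes 0.17 and 0.16, adjusted p = 0.825 and 0.834 in edgeR). Dnajb9, a BiP co-chaperone and XBP1 target, lay lower in both GDF10 libraries than in both vehicle libraries (log2 fold change −0.21, adjusted p = 0.833 in edgeR). Fold changes in these lists ran from −0.93, for Ube2g2, where vehicle 1 had 4775 counts against 1359 to 1773 in the others, to 0.78, for Slc7a3, at 18 to 43 counts.

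Exon bases were shared with another gene of the table by 13 of the 40 genes, and by at least 100 bases in 4. Since the use of strand in counting is not given in the sources used here, reads of these pairs cannot be told apart where they overlap. Psph shares 452 bases with Cct6a on the opposite strand, a gene with 47829 counts over the 4 libraries beside 4230 for Psph. The log2 fold change of Cct6a was 0.05, beside 0.33 for Psph. Hsp90b1 shares 415 bases with 1810014B01Rik on the opposite strand, which had 2680 counts beside 142351 for Hsp90b1. It also shares 133 bases with Gm25745 on its own strand, which had 7404 counts and a log2 fold change of −0.30, beside −0.16 for Hsp90b1. Eif2ak3 shares 485 bases with Gm43292, at 35 counts beside 3517. Manf, at 21619 counts, shares 166 bases with 4930524O07Rik, at 38 counts, and 146 with Dcaf1, at 6502 counts.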

How the data were processed

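RNA of 4 C2C12 libraries was sequenced, and the authors deposited raw counts for each gene as integers. The submitters' processing notes name HISAT2 2.0, StringTie 1.3.3b, DESeq2 1.12.4, Trimmomatic 0.36, FastQC 0.11.2, bedtools 2.26.0 and build mm10, without roles. How reads were counted, on which gene models and with or without strand is not given in the sources used here. Of 51826 identifiers 51633 were found in GENCODE M21, which gave symbols, mm10 positions and exon lengths (all annotated exons of a gene merged).

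The test was edgeR 4.0.16 under R 4.3.3: filterByExpr by group (15467 genes kept), TMM, robust dispersions, glmQLFit and glmQLFTest, GDF10 over vehicle, no covariates, Benjamini-Hochberg adjustment over all genes kept, threshold 0.05. Standard errors and 95% intervals were derived from F and the fold change. The edgeR, DESeq2 and limma-voom fits were tried on simulated counts with no GC content, exon length or replicate trend. Such counts cannot show how the fits behave under these trends. With 2 libraries a group, p-values rest on counting error and on the spread between these libraries, each gene's estimate being drawn towards that of all genes tested. They measure no spread beyond these libraries. CPM use TMM-scaled totals. A count of 3 corresponds to 0.0843 to 0.101 CPM.

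The genes, role groups, lists and tests were chosen with earlier results of these data known. Named with values in every library were all genes with an unadjusted p under 0.05, the 2 of lowest p in each role and 18 fixed by name; from further lists up to 3 of lowest p. Values of Canx, Dnajc3, Calr, Shmt2, Pdia3, Pdia6, Syvn1, Ube2g2 and Slc7a3 were added after they were seen. Alternatives were DESeq2 1.42.0, limma-voom (limma 3.58.1), other scalings and filters, non-robust dispersions, a replicate block, each library left out, and limma on log2 CPM (prior count 2) after a loess fit (span 0.3) of each library on GC content (longest GENCODE transcript, no genome being used) or exon length was subtracted. Promoter windows are RefSeq's (GRCm38.p6).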

Additional observations from a re-analysis of the deposited data

How the results depend on the processing

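The number of genes called was 25, and it was 65 with DESeq2, 11 with limma-voom, 9 with non-robust dispersions and 27 to 224 when a library was left out (highest without GDF10 2). None of the 40 genes was called with the scalings, filters and tools tried on all 4 libraries or at an adjusted p of 0.1, and 0 to 1 were when a library was left out, the 1 being Psat1 without GDF10 2. An unadjusted p under 0.05 was reached by 4 of the 40, by 1 with the GC content trend removed, 2 with the exon length trend removed, and 1 (without vehicle 1) to 10 (without GDF10 1) when a library was left out. With the exon length trend removed the 2 were Hsp90b1 and Canx, both lower with GDF10, and Canx was not among the 4. With the GC content trend removed the 1 was Psat1. The count was 3 with DESeq2, beside 4.31% of all genes, and 3 with limma-voom, beside 5.62%. The median log2 fold change of the 40 was 0.09 and ran from 0.04 to 0.14 when a library was left out.

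With the replicate number as a block in edgeR 23 genes and 0 of the 40 were called, and 9 of the 40 had an unadjusted p under 0.05, beside 8.51% of all genes. Across genes the difference between replicates 1 and 2 correlated at 0.07 between the groups, and the labels do not say what a number shares. The main fit therefore has no block. Replicate 2 was above in both groups in 13 of the 15 amino acid response genes, and some depended on this choice. With the block, the unadjusted p in edgeR was 0.00555 for Asns (0.107 without) and 0.0123 for Trib3 (0.473 without). For Slc7a5 it was 0.0221 (0.392), for Chac1 0.0290 (0.264) and for Psat1 0.0704 (0.0428). The lowest adjusted p of the 40 was 0.428.

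Of 390 fold changes of 26 named genes under the alternatives, 21 had the opposite sign, in 12 genes, none of them called. With the GC or length trend removed these were Atf4 (−0.0017 and −0.0010), Pdia3 (−0.0198, length) and Pdia4 (−0.0480, length), and Pdia4 also had −0.0011 with a CPM filter and −0.0034 with total counts. When a library was left out, ranges were −0.0194 to 0.39 for Aldh18a1, −0.0914 to 0.00828 for Eif2ak3, −0.24 to 0.0420 for Ern1, −0.0426 to 0.41 for Mthfd2, −0.0315 to 0.0627 for Pdia3, −0.0556 to 0.0613 for Pdia4, −0.00305 to 0.14 for Pdia6, −0.0174 to 0.56 for Sel1l, −0.00784 to 0.17 for Slc7a11, −0.0571 to 0.49 for Slc7a5 and −0.0798 to 0.88 for Trib3; the cause was not tested. Each of the 40 genes had at least 256 counts in every library, and the shares of counting error and of library spread in the standard errors were not separated.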
